A study of Mus musculus with 24 samples.

Results

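The interaction of Nlrp3 genotype and glyoxylate asks, for each gene, whether the kidney's response to glyoxylate differed between knockout and wild-type mice. It was computed on log2(FPKM + 1) as the knockout response (KO-Gly minus KO-Ctrl) minus the wild-type response (WT-Gly minus WT-Ctrl), where FPKM is fragments scaled by transcript length and library. A negative interaction means that the knockout value under glyoxylate, relative to its own saline group, lay below that of wild type. Genes were kept where the KO-Ctrl and WT-Ctrl means differed by under 0.3 log2 units, which 25704 of 28450 features in the table met. Of these 25704, 10576 passed a minimum of 1 FPKM in at least 6 libraries and were tested, among 13020 tested features in all. The rule used the saline means, which also enter the interaction, so the genes were chosen by measured values, and the saline difference is given as a description only.

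The study compared kidneys of C57BL/6 mice, wild type or NLPR3-/- (the labels' spelling of the Nlrp3 knockout), in a model of calcium oxalate nephrocalcinosis. Mice had intraperitoneal injections of saline (WT-Ctrl and KO-Ctrl) or of glyoxylate acid (Gly; WT-Gly and KO-Gly) at 75 mg/kg daily in 200 µl, over days 1 to 7, and whole kidney was taken after the last day. Each group had 6 libraries, 24 in all. The labels give neither the age nor the sex of the mice, nor how the knockout allele was made, and they do not say whether it was a littermate line. The labels list separate samples but do not describe them further, so p-values cover only the spread among the samples, which may be technical. The 5 KO-Ctrl libraries numbered 1, 2, 3, 5 and 6 lacked the Y-linked gene Ddx3y, at 0.0218 FPKM at most, while the other 19 libraries had at least 5.14 FPKM. Saline knockout library 4 was thus the only KO-Ctrl library to express it. The labels do not say whether those 5 mice differed from the others in sex or batch. The knockout response and the interaction set them against Gly mice that express Ddx3y, so that in these values such a difference and the treatment cannot be told apart. The counts of both, the leading genes as a set and some of the list medians below are also given without those 5. Other values below rest on all 6 KO-Ctrl libraries.

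Nlrp3 is a cytosolic sensor that assembles with the adaptor Pycard and caspase-1 into the inflammasome, which matures IL-1beta and IL-18 and cleaves gasdermin D. Glyoxylate is converted to oxalate, and calcium oxalate crystals injure the tubule, where crystals are known to activate the inflammasome in myeloid cells. In such injury, tubule cells lose transport and metabolic transcripts, gain injury and chemokine transcripts, and macrophages gather. In whole kidney, fewer cells of a type and less RNA per cell cannot be told apart.

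Nlrp3 itself met the saline rule but was below the expression minimum for the genome-wide test. In WT-Ctrl, the lowest, median and highest libraries held 0.0397, 0.0705 and 0.0886 FPKM, and in WT-Gly 0.361, 0.502 and 0.896 FPKM. KO-Ctrl libraries held 0, 0.0988 and 0.182 FPKM, and KO-Gly libraries 0.119, 0.126 and 0.144 FPKM. Under saline the genotypes overlapped near 0, and under Gly all 6 knockout libraries lay below all 6 of wild type (0.129 ± 0.00910 against 0.572 ± 0.224 FPKM, SD, n = 6 each; two-sided exact permutation test, p = 0.0022, the smallest that 924 splits allow). Its interaction was -0.50. FPKM covers the whole gene model, and reads outside a deleted part would still be counted. The transporters of the proximal tubule, which mark kidney tissue, were present in every library, with a median summed level on the log2(FPKM + 1) scale of 12.2 in WT-Ctrl, 11.4 in WT-Gly, 12.1 in KO-Ctrl and 12.03 in KO-Gly. Ribosomal protein genes made up 6.09 ± 1.70% of the FPKM sum in WT-Gly (SD, n = 6), up to 9.49% in WT-Gly library 1, against 4.33 ± 0.474% in KO-Gly, 2.70 ± 0.163% in WT-Ctrl and 2.93 ± 0.219% in KO-Ctrl, and their part in the results was not tested.

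Where the responses differed, the larger one was nearly always that of wild type, in 2291 of 2337 genes with a called interaction (1743 of 1789 after median-ratio scaling of the libraries). The same share was not computed over all tested features, so it is not shown to be particular to the kept genes. Of all tested features, 63.5% had a called response in wild type and 29.5% in knockout. By limma, 2337 of the 10576 tested genes kept by the saline rule had a called interaction (22.1%, adjusted p under 0.05), against 26.6% of all tested features. The call was lower, that is negative, for 1940 (background 20.3%) and higher for 397 (background 6.28%). It reached at least 1 log2 unit in 160 genes, 125 of them lower and 35 higher. Among the 2444 tested features outside the rule, 1120 (45.8%) had a called interaction. The median interaction was -0.14 over the kept genes and -0.16 over all tested features. After median-ratio scaling, the median over all features moved from -0.16 to -0.02 and the split of the kept genes became 899 lower and 890 higher. With quantile normalization 1098 were lower and 978 higher. Of the 2337 genes, 1296 were also called after median-ratio scaling and 1424 after quantile normalization, so the set of called genes depended on the scaling. Without the 5 KO-Ctrl libraries that lack Ddx3y, which leaves 1 library in that group, 7 genes were called by limma, and 1089 had an unadjusted p under 0.05.

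The responses of the 2 genotypes share no library, and each was called against its own saline group. In wild type 6657 of the 10576 genes were called (background 63.5%), of which 5512 rose (background 50.2%) and 1145 fell (background 13.3%). In knockout 3011 were called (background 29.5%), of which 2583 rose (background 23.7%) and 428 fell (background 5.72%). Side by side, 2441 genes rose in both genotypes, 375 fell in both, 3834 passed the test in wild type only, 188 in knockout only, 7 moved in opposite directions and 3731 passed in neither. These patterns were counted among the kept genes only, without shares over all tested features, and are not a trait particular to the kept genes. A gene that passed in one genotype alone is not thereby shown to differ between them, which only the interaction tests. Median-ratio scaling gave 3032 higher and 2821 lower in wild type and 1248 higher and 1099 lower in knockout, a more even split in both, and quantile normalization 2949 higher and 3223 lower in wild type and 1335 higher and 1326 lower in knockout. Without the 5 KO-Ctrl libraries the knockout response was called for 442 genes, 399 of them higher and 43 lower. The scatter of the responses shows called genes between the wild-type axis and the line of equal responses on both sides of 0.

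**Figure D1:**
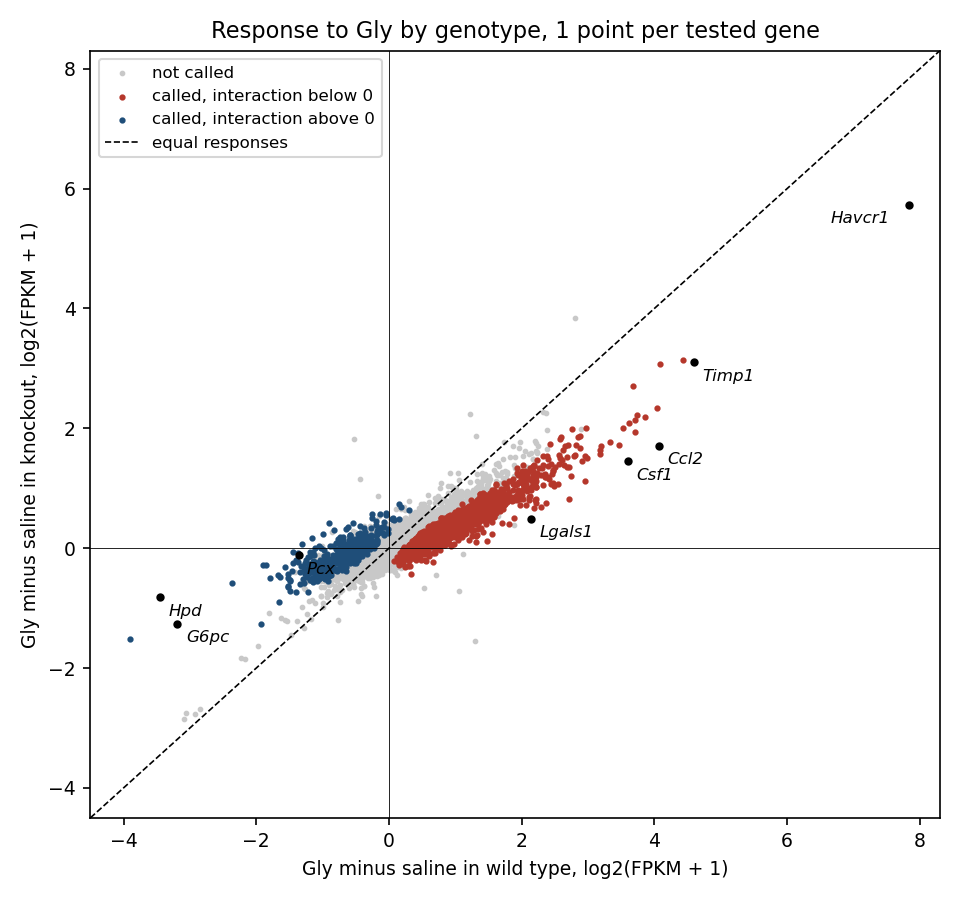
Response to Gly in knockout (vertical axis) against that in wild type (horizontal axis), both as differences of mean log2(FPKM + 1), with 1 point for each of the 10576 tested genes; red and blue points have a called interaction below or above 0, and black points are named genes. Red points lie mainly below the dashed line of equal responses at the right and blue points mainly above it at the left, with Havcr1 farthest out at 7.84 in wild type and 5.73 in knockout.

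The 12 Gly libraries give a second view that uses none of the libraries of the saline rule, and all 12 express Ddx3y. KO-Gly differed from WT-Gly for 1675 of the 10576 genes (15.8%; limma fitted on those 12 libraries, adjusted p under 0.05), against 16.7% of all tested features. Of these, 1275 were lower in knockout (background 11.6%) and 400 higher (background 5.06%), and 113 differed by 1 log2 unit or more. With median-ratio scaling the split was 868 lower and 706 higher. Leaving out 1 library moved the count most for KO-Gly: 957 genes were called without library 5, 1012 without library 2 and 1063 without library 3. Of the 2337 kept genes with a called interaction, 1395 were also called here in the same direction. The 12 Gly libraries also enter the interaction, so the values below are set side by side and not counted as separate support.

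Among called genes with a symbol and at least 5 FPKM in their highest group, the most negative interactions belonged to a chemokine, a macrophage growth factor and a tubule injury receptor. Ccl2, which attracts monocytes, had a lowest, median and highest level of 12.3, 18.9 and 24.3 FPKM in WT-Gly and of 1.64, 2.93 and 8.23 FPKM in KO-Gly. In saline it was at 0, 0.114 and 0.423 FPKM in WT-Ctrl and at 0.145, 0.257 and 0.790 FPKM in KO-Ctrl. All Gly libraries lay above all saline libraries of their genotype, and no KO-Gly library reached the lowest of WT-Gly. The response was 4.06 in wild type and 1.71 in knockout, 42.1% of the former, with an interaction of -2.35 ± 0.31 (SE; limma, adjusted p = 2.86e-05) and a difference among Gly libraries of -2.15.

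Csf1, the growth factor that sustains macrophages, stood at 21.0, 29.6 and 32.8 FPKM (lowest, median and highest) in WT-Gly and at 4.72, 7.04 and 11.04 FPKM in KO-Gly. Its saline levels were 1.31, 1.37 and 1.55 FPKM in WT-Ctrl and 1.51, 1.84 and 2.80 FPKM in KO-Ctrl. Neither pair of Gly and saline groups overlapped, nor did the Gly groups of the genotypes. The interaction was -2.16 ± 0.20 (SE; limma, adjusted p = 8.21e-07), from responses of 3.61 and 1.45.

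Havcr1 encodes KIM-1, a receptor that injured proximal tubule cells display. It went from at most 1.55 FPKM in any WT-Ctrl library to 337, 379 and 481 FPKM (lowest, median and highest) in WT-Gly. In knockout it went from at most 0.801 FPKM to 39.1, 76.7 and 207 FPKM. Knockout kidneys thus induced it strongly, in a wide range of levels that stayed below that of wild type. Knockout kept 73.1% of the log2 response (interaction -2.11 ± 0.42, SE; limma, adjusted p = 0.000795), a larger share than for Ccl2 or Csf1.

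Because Csf1 and the chemokines Cxcl1 and Cxcl2 are textbook targets of NF-kB, their promoters are shown with the letters of a kappaB motif in capitals. The motif searched was GGGA, then any base, then TTTCC, on both strands, in the 250 bases before the start sites that RefSeq lists on GRCm38.p6, and 200 of those bases are printed 5′ to 3′ along the gene's strand. The windows are chr3:107760470-107760669 (minus strand) for Csf1, chr5:90891045-90891244 (plus strand) for Cxcl1 and chr5:90903699-90903898 (plus strand) for Cxcl2.
Csf1: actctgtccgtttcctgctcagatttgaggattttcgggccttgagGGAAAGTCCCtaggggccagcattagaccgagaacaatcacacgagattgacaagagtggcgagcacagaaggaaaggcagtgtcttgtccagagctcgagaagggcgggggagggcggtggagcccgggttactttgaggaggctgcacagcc
Cxcl1: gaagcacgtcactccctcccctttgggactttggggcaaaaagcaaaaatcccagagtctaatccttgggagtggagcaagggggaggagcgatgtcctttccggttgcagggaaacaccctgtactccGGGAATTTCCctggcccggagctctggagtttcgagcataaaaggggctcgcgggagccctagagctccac
Cxcl2: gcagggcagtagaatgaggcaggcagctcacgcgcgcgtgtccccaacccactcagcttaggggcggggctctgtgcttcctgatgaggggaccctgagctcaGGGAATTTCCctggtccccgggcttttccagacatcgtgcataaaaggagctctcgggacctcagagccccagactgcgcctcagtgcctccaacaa
In Cxcl1 the match lies at positions -71 to -62 from the start site, in Cxcl2 at -97 to -88, and in Csf1, on the opposite strand, at -154 to -145. These letters were found in 0.356% of all 32851 listed promoters, in 0.382% of the promoters of tested kept genes, in 12 of 1858 promoters of genes with a lower interaction (0.646%) and in 3 of 372 of those with a higher one (0.806%). The counts are small, and a match is a description of the letters only. Of the 23 leading genes, 15 have a listed promoter, and 2 of these 15 (Csf1 and Cxcl1) hold the letters.

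Cxcl1, a neutrophil chemokine, held 14.1 to 23.7 FPKM in WT-Gly and 2.81 to 10.5 FPKM in KO-Gly, from at most 0.943 FPKM in any saline library. Its interaction was -1.67 ± 0.28, with responses of 3.86 and 2.18. Cxcl2, its close relative, was listed at 0 in all 6 KO-Ctrl libraries and held 3.56 to 6.17 FPKM in WT-Gly against 0.776 to 1.51 FPKM in KO-Gly (interaction -1.45 ± 0.14). For both chemokines the Gly groups of the genotypes did not overlap.

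The other leading genes with a negative interaction were of varied function. Defb36, a beta-defensin, had 3.52 to 15.7 FPKM in WT-Gly and 0.347 to 1.76 FPKM in KO-Gly (interaction -1.90 ± 0.30), and Ubd, a ubiquitin-like modifier induced by cytokines, 3.97 to 27.3 FPKM against 1.16 to 3.73 FPKM (-1.83 ± 0.37). The highest WT-Gly value of both came from library 1. Cyr61, a matrix-associated signalling protein, had an interaction of -1.76 ± 0.36, Gpc3, a heparan sulfate proteoglycan, -1.74 ± 0.29, and Aoc1, the diamine oxidase that breaks down histamine and putrescine, -1.69 ± 0.32. Aoc1 was the only one of the 12 most negative genes whose KO-Gly and WT-Gly libraries overlapped (8.93 to 20.1 against 14.2 to 51.9 FPKM).

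Lgals1, a galectin, rose in both genotypes. Its KO-Gly libraries, from 45.8 to 108 FPKM, overlapped those of KO-Ctrl, from 41.1 to 53.4 FPKM, while WT-Gly ran from 144 to 306 FPKM. Its response was 2.14 in wild type and 0.49 in knockout (limma, adjusted p = 0.0394 in knockout; interaction -1.65 ± 0.25). Atf3, a stress-induced transcription factor, had 7.77 to 17.7 FPKM in WT-Gly and 1.82 to 5.16 FPKM in KO-Gly (interaction -1.61 ± 0.22), and H2-Ab1, the beta chain of MHC class II, 121 to 371 against 64.9 to 116 FPKM (-1.60 ± 0.31). For these 12 genes all WT-Gly libraries lay above all WT-Ctrl libraries.

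**Figure D2:**
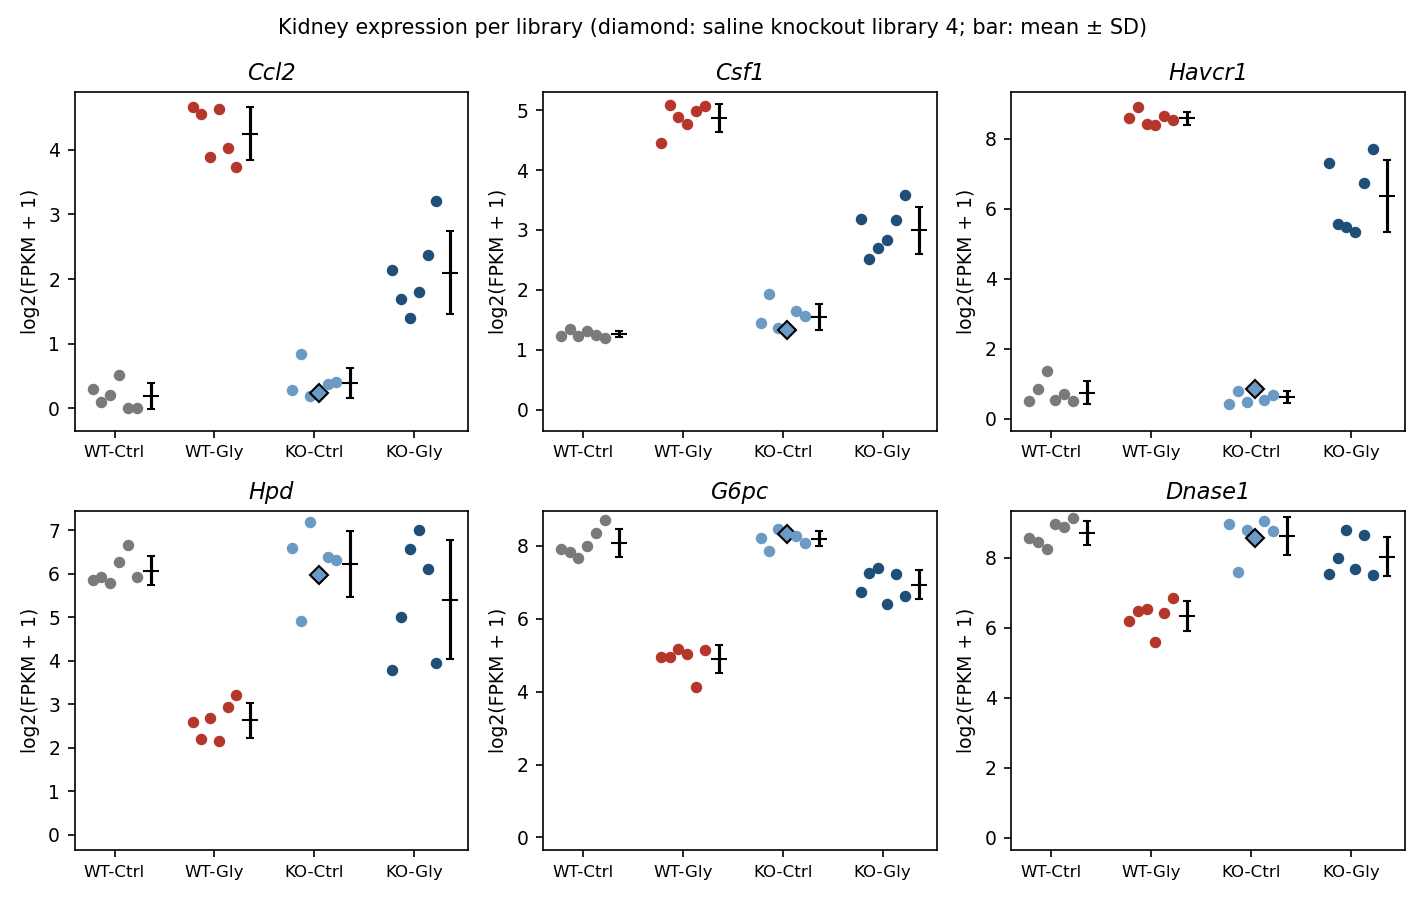
Level in each library, as log2(FPKM + 1), of 3 genes with a negative interaction (top row) and 3 with a positive one (bottom row) by group, 6 libraries a group; bars are the mean ± SD and the diamond is saline knockout library 4, the KO-Ctrl library that expresses Ddx3y. KO-Gly points lie between the saline and WT-Gly points for Ccl2, Csf1, Havcr1 and G6pc, spread from near WT-Gly up to the saline range for Hpd, and lie above WT-Gly and partly in the saline range for Dnase1.

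In the same set of genes, the most positive interactions belonged to enzymes of amino acid breakdown and glucose release, among others. Hpd, which acts early in tyrosine breakdown, had a lowest, median and highest level of 54.4, 60.2 and 101 FPKM in WT-Ctrl and of 3.45, 5.24 and 8.24 FPKM in WT-Gly. In KO-Ctrl these were 29.2, 80.5 and 145 FPKM, and in KO-Gly 12.9, 49.6 and 128 FPKM. Every WT-Gly library lay below every library of the other 3 groups, and the knockout groups overlapped, with KO-Gly libraries 1 and 6 (12.9 and 14.4 FPKM) lowest. The wild-type response was -3.44, the knockout response -0.82 (limma, adjusted p = 0.164) and the interaction 2.62 ± 0.62 (SE; limma, adjusted p = 0.00322).

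The listed promoters of the leading genes were also searched for the letters of an AP-1 motif, TGANTCA, which factors such as Jun are known to bind. That of Hpd, which leads the positive values, is shown as one that holds them. The 200 bases before its RefSeq start site, chr5:123182724-123182923 on GRCm38.p6 (minus strand), hold the letters at positions -139 to -133, in capitals.
Hpd: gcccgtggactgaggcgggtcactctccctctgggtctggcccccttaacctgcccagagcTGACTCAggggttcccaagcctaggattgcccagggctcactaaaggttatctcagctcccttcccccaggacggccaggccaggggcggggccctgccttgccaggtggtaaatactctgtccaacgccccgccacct
The motif reads the same on both strands. It was found in 6.749% of all listed promoters over 250 bases, in 4.243% of those of tested kept genes, in 4.79% of those with a lower interaction and in 5.108% of those with a higher one. Aoc1 was the other leading gene with these letters, at -131 to -125.

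Relative to its level, G6pc, the phosphatase that releases glucose from gluconeogenesis, varied less than Hpd within KO-Ctrl and within KO-Gly. Its levels were 203, 246 and 420 FPKM in WT-Ctrl, 16.4, 30.9 and 34.7 FPKM in WT-Gly, 231, 302 and 353 FPKM in KO-Ctrl and 84.2, 126 and 168 FPKM in KO-Gly. It fell in both genotypes without overlap between Gly and saline, and KO-Gly stayed above WT-Gly in all 6 libraries. The interaction was 1.93 ± 0.27 (SE; limma, adjusted p = 4.45e-05).

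Car14, Vnn1, Mogat2, Dhtkd1, Gpam, Pcx and Cyp4a10 fell in wild type and had knockout responses from -0.28 to 0.17 that did not pass the test. They encode a membrane carbonic anhydrase, a pantetheinase, an acyltransferase of monoacylglycerol, a dehydrogenase of lysine breakdown, an acyltransferase that starts glycerolipid synthesis, pyruvate carboxylase and a fatty acid hydroxylase. Car14 ran from 28.5 to 72.2 FPKM in WT-Ctrl, 9.62 to 15.7 FPKM in WT-Gly, 23.1 to 82.4 FPKM in KO-Ctrl and 16.8 to 63.3 FPKM in KO-Gly (interaction 1.57 ± 0.41). Pcx ran from 143 to 200.3 FPKM, 55.8 to 78.3 FPKM, 112 to 197 FPKM and 93.7 to 176 FPKM in the same order (1.25 ± 0.19). In both, WT-Gly stood alone below the other 3 groups.

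The interaction was 1.62 ± 0.47 for Cyp4a10, 1.38 ± 0.25 for Vnn1, 1.37 ± 0.43 for Mogat2, 1.33 ± 0.28 for Dhtkd1 and 1.28 ± 0.38 for Gpam. Dnase1, a secreted nuclease, ran from 302 to 560 FPKM in WT-Ctrl, 47.3 to 114 FPKM in WT-Gly, 192 to 528 FPKM in KO-Ctrl and 183 to 445 FPKM in KO-Gly, so that WT-Gly alone stood apart. It fell by 2.36 in wild type, with a knockout response of -0.59 (limma, adjusted p = 0.0827) and an interaction of 1.77 ± 0.36. Cyp4a31, a relative of Cyp4a10, fell in both genotypes, with responses of -1.79 and -0.50 (interaction 1.29 ± 0.23). The Cyp4a genes are near-identical copies, so that FPKM could be split between them and single members are uncertain.

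All 23 leading genes passed the test in the 12 Gly libraries too, against 16.7% of all tested features. This is part of how their interaction arose. In 19 of the 23 the KO-Gly and WT-Gly libraries did not overlap, which their choice by interaction size favours. The share without overlap over all tested features was not computed. In saline, the KO-Ctrl and WT-Ctrl libraries overlapped in each of the 23. The saline rule favours such overlap, so it is a description only. Saline differences inside the rule still enter the interaction with reversed sign. Among the 12 most negative genes, KO-Ctrl minus WT-Ctrl was -0.12 for Havcr1, -0.15 for Defb36 and -0.01 for Atf3. For the others it was above 0, up to 0.30 for H2-Ab1. That gene had an interaction of -1.60 and a Gly difference of -1.30. Among the leading positive genes it ran from -0.24 (Dhtkd1) to 0.18 (Cyp4a10). In 13 of the 23 the saline knockout library 4 lay within the range of the 5 that lack Ddx3y. Neither count was set against all tested features. Without those 5 libraries KO-Ctrl is library 4 alone, assumed to vary like the other groups. The interaction then kept its sign in 23 of 23 genes, at 0.624 to 1.24 times its size, but passed the test in 1 (Csf1, -1.94; limma, adjusted p = 0.0273). Car14 went from 1.57 to 0.98 and Pcx from 1.25 to 0.79. Over all 10576 kept genes the number of calls went from 2337 to 7, and knockout response calls from 3011 to 442. The 7, named after their values were seen, were Ccl12 (-1.84), Csf1 (-1.94), Cxcl2 (-1.45), the glycosyltransferase Rxylt1 (-0.96), the growth factor Pdgfb (-1.30), the replication protein Rpa1 (-0.96) and the carrier Slc25a34 (1.09).

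**Figure D3:**
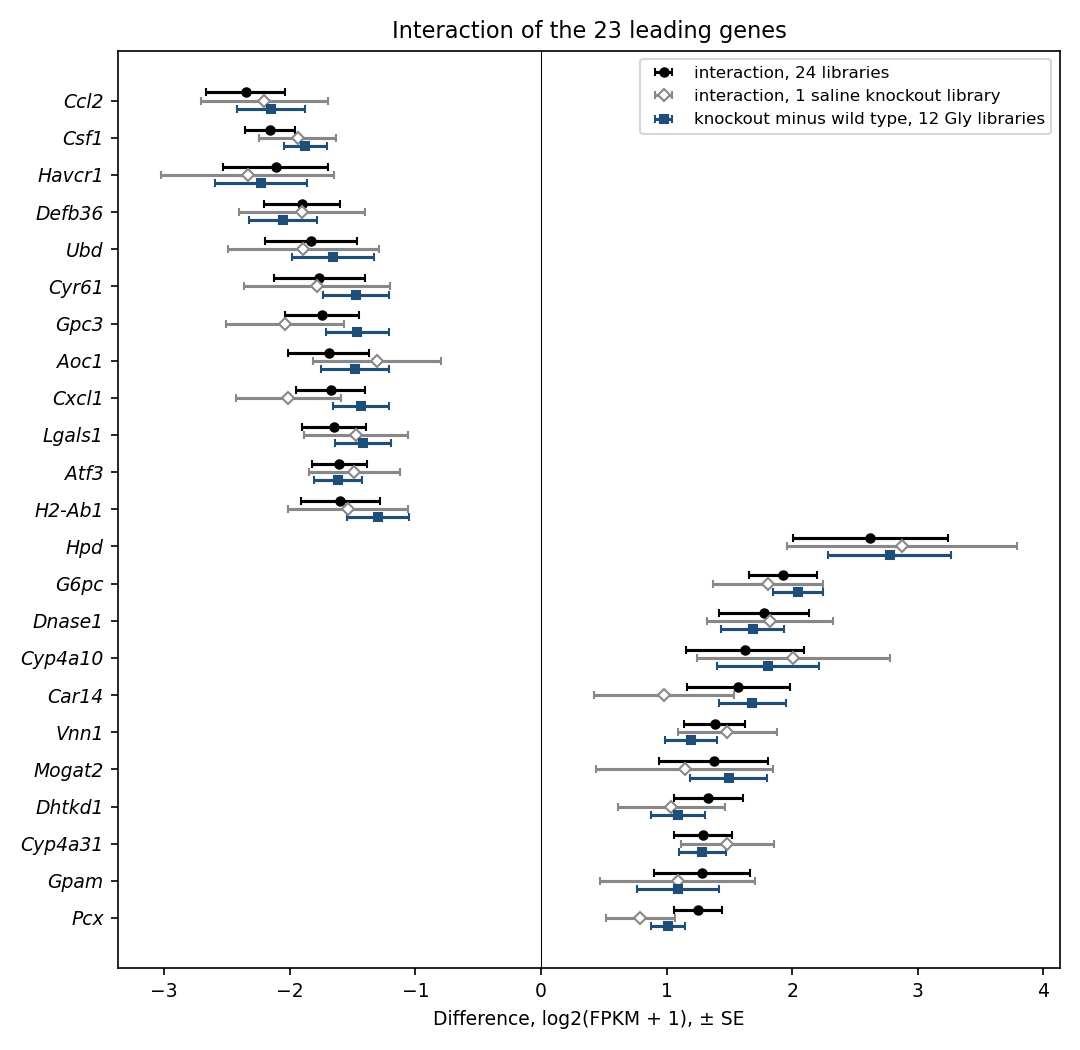
Interaction ± SE on log2(FPKM + 1) for the 23 leading genes, from all 24 libraries (black), with saline knockout library 4 as the only KO-Ctrl library (open grey), and the difference KO-Gly minus WT-Gly in the 12 Gly libraries (blue). All 3 estimates lie on the same side of 0 for each gene, and the open points carry the widest bars.

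Chemokines, other NF-kB targets and subunits of NF-kB itself formed a list with 1 direction of call. All 20 tested genes rose in wild type and 17 rose in knockout (background 50.2% and 23.7%). A lower interaction was called for 16 of 20 and a higher one for none (background 20.3% and 6.28%). The list's median interaction was -0.82, against -0.16 over all tested features, from median responses of 2.12 in wild type and 1.05 in knockout. Besides Ccl2, Csf1, Cxcl1 and Cxcl2, the monocyte chemokine Ccl12 had 5.54 to 6.66 FPKM in WT-Gly and 1.00 to 2.66 FPKM in KO-Gly, with no overlap and an interaction of -1.55 ± 0.18. With saline knockout library 4 alone the median was -0.70.

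Macrophage and monocyte markers gave the most negative median of the lists with at least 4 tested genes. All 22 tested markers rose in wild type and 21 in knockout (background 50.2% and 23.7%). A lower interaction was called for 19 and a higher one for none (background 20.3% and 6.28%), with a median of -1.10 (-0.97 with saline knockout library 4 alone). C1qc, a chain of the complement recognition protein C1q, ran from 28.2 to 64.9 FPKM in WT-Gly and from 13.6 to 32.8 FPKM in KO-Gly, and C1qb from 40.8 to 132 and from 23.6 to 46.5 FPKM. Their interactions were -1.56 ± 0.27 and -1.49 ± 0.29, and the Gly groups overlapped in both. Aif1, a calcium-binding protein of macrophages, had 4.02 to 13.0 FPKM in WT-Gly and 1.09 to 3.06 FPKM in KO-Gly without overlap (-1.59 ± 0.28). The summed level of the whole marker list had a lowest, median and highest library of 51.5, 62.3 and 86.7 FPKM in WT-Ctrl, 370, 783 and 999.4 FPKM in WT-Gly, 56.0, 78.5 and 118 FPKM in KO-Ctrl and 204, 302 and 575 FPKM in KO-Gly. The part of these cells in the interaction of other genes was not tested.

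In the lists for MHC class II, complement and the interferon response, most members lay outside the saline rule and only those within it are described. Lower interactions are to be read against the background of 20.3%. For MHC class II, 2 genes were tested and 5 lay outside: H2-Ab1 had a lower interaction and Ciita, the transactivator of the class, had -0.52 ± 0.23 (limma, adjusted p = 0.0929; 0.0223 without WT-Gly library 1 and 0.0215 without library 5). For complement 4 were tested, 10 lay outside, and 3 had a lower interaction: the anaphylatoxin receptors C5ar1 (-0.69 ± 0.20) and C3ar1 (-0.61 ± 0.19), and the protease C1s1 (-0.68 ± 0.24; limma, adjusted p = 0.0363), which is at the edge of the saline rule and lost its call without WT-Ctrl library 1, 4 or 6, WT-Gly 2 or 4, KO-Ctrl 1, 2, 5 or 6, or KO-Gly 1 or 4 (adjusted p from 0.0522 to 0.0686). The genotype difference of C1s1 among the Gly libraries, -0.38, did not pass the test (limma, adjusted p = 0.215). In the interferon response list 5 were tested, 19 lay outside and 4 had a lower interaction (2 after quantile normalization). Psmb8, an immunoproteasome subunit, ran from 9.18 to 26.1 FPKM in WT-Gly and from 4.64 to 6.97 FPKM in KO-Gly (interaction -1.37 ± 0.25). Igtp, an interferon-induced GTPase, had an interaction of -0.75 ± 0.22, with a knockout response of -0.09 that did not pass the test.

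Among 10 tested genes of the inflammasome and IL-1 system, 2 had a lower interaction and none a higher one, a share near the background of 20.3%. Gsdmd, the pore-forming protein gasdermin D, had 2.06 to 6.69 FPKM in WT-Gly and 1.38 to 2.25 FPKM in KO-Gly (-0.96 ± 0.20; limma, adjusted p = 0.00115). Pycard, the inflammasome adaptor, rose in both genotypes, by 1.31 and 0.61, with an interaction of -0.71 ± 0.22 (limma, adjusted p = 0.0193). Its genotype difference among the Gly libraries, -0.57, did not pass the test (limma, adjusted p = 0.0614). The interaction of Casp4, the caspase that senses lipopolysaccharide in the cytosol, was -0.58 ± 0.22 (limma, adjusted p = 0.051), and it passed the test without WT-Ctrl library 5, WT-Gly 3 or 5, KO-Ctrl 1 or 4, or KO-Gly 3, 4 or 6 (adjusted p from 0.0169 to 0.0499). In wild type 7 of the 10 rose and in knockout 5 (background 50.2% and 23.7%). The median interaction was -0.42, and -0.43 with saline knockout library 4 alone.

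Stress-response transcripts had interactions mainly below 0. In the list of immediate early and AP-1 genes, which encode fast transcription factors, 8 of 13 were lower and none higher (background 20.3% and 6.28%), with a median of -0.75 (5 lower after median-ratio scaling). Maff, a small Maf factor, ran from 10.1 to 15.2 FPKM in WT-Gly and from 2.96 to 6.68 FPKM in KO-Gly (-1.21 ± 0.18), and Klf6, a zinc finger factor of injury, from 24.6 to 52.8 and from 12.1 to 22.6 FPKM (-1.17 ± 0.21), neither with overlap. In the unfolded protein and integrated stress response, 10 of 15 were lower and 1 higher, against the same background (the latter was Sesn2, named after its value was seen, 0.53), with a median of -0.59 (5 lower after median-ratio scaling). Atf4, the central factor of the integrated stress response, had 61.1 to 103 FPKM in WT-Gly and 34.98 to 47.3 FPKM in KO-Gly, the latter overlapping KO-Ctrl (-0.87 ± 0.15). Its target Trib3 had -0.83 ± 0.20 and Sdf2l1, a protein of the endoplasmic reticulum, -1.05 ± 0.26.

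Of 7 cytosolic heat shock genes tested, which encode chaperones, 4 had a lower interaction and none a higher one (background 20.3% and 6.28%), with a median of -0.60. Dnajb1, a co-chaperone, went from 9.49 to 12.5 FPKM in WT-Ctrl to 22.9 to 35.2 FPKM in WT-Gly, while KO-Gly, at 10.7 to 14.8 FPKM, overlapped KO-Ctrl at 9.92 to 12.3 FPKM (-1.04 ± 0.14; limma, adjusted p = 2.49e-05). Hspa1a, an inducible Hsp70 with a near-identical copy that makes its level uncertain, had responses of 1.48 and 0.13 (-1.36 ± 0.27). Bag3, its partner, rose in both genotypes (-0.60 ± 0.12). Among 12 genes of apoptosis and necroptosis 6 were lower (background 20.3%; median -0.48), led by the death receptor Tnfrsf10b (-0.84 ± 0.14), the p53 target Bbc3 (-0.92 ± 0.17) and the TNF receptor Tnfrsf1a (-0.62 ± 0.12).

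Tubule injury genes responded strongly in both genotypes. Each of the 12 tested rose in wild type and in knockout (background 50.2% and 23.7%), with medians of 2.36 and 1.94. A lower interaction was called for 6 and a higher one for none (background 20.3% and 6.28%), with a median of -0.59. A further 14 of the list, among them Lcn2 and Spp1, lay outside the saline rule. Sox9, a regulator of tubule repair, had 1.67 to 4.66 FPKM in WT-Gly and 0.552 to 1.59 FPKM in KO-Gly (-1.25 ± 0.20), and Timp1, an inhibitor of matrix proteases, 22.3 to 40.0 against 5.68 to 19.8 FPKM (-1.49 ± 0.28). The 3 fibrinogen chains on the list, singled out after their values were seen, had interactions above 0 that did not pass the test: Fga 1.03 (limma, adjusted p = 0.111), Fgb 0.56 (adjusted p = 0.534) and Fgg 1.05 (adjusted p = 0.197).

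Matrix, cytoskeleton and cell cycle genes had median interactions of -0.80, -0.78 and -0.61. All 14 tested matrix and fibrosis genes rose in both genotypes (background 50.2% in wild type and 23.7% in knockout), and 7 had a lower interaction (background 20.3%), such as the actin-binding Tagln (49.0 to 62.7 FPKM in WT-Gly, 21.3 to 47.5 FPKM in KO-Gly; -1.07 ± 0.20) and the basement membrane collagen Col18a1 (-0.82 ± 0.17). All 15 cytoskeleton genes rose in both genotypes, and 14 had a lower interaction, against the same background. Tpm3, a tropomyosin, had 80.7 to 103 FPKM in WT-Gly and 51.5 to 68.7 FPKM in KO-Gly (-0.79 ± 0.10), and its saline groups did not overlap either. The tubulins Tubb5 (-0.98 ± 0.14) and Tuba1b (-0.89 ± 0.14) belong to families with similar copies and are uncertain as single genes. Of 26 cell cycle genes all rose in wild type and 24 in knockout (background 50.2% and 23.7%), and 11 had a lower interaction (background 20.3%), among them the replication clamp Pcna (-0.70 ± 0.12) and the helicase subunits Mcm3 (-0.96 ± 0.21) and Mcm5 (-0.95 ± 0.22).

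Metabolic lists of the proximal tubule had median interactions above 0, the opposite of the lists above. In gluconeogenesis and fructose metabolism all 11 tested genes fell in wild type and 7 in knockout (background 13.3% and 5.72%), and 8 had a higher interaction and none a lower one (background 6.28% and 20.3%). The median response was -1.22 in wild type and -0.38 in knockout, and the median interaction 0.76 (0.58 with saline knockout library 4 alone). Sord, the sorbitol dehydrogenase, went from 632 to 778 FPKM in WT-Ctrl to 286 to 331 FPKM in WT-Gly, while KO-Gly, at 479 to 681 FPKM, overlapped KO-Ctrl, at 524 to 796 FPKM (1.07 ± 0.14; limma, adjusted p = 1.96e-05). Together with G6pc and Pcx, it had the smallest p of the list.

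Amino acid breakdown showed the same direction in 20 tested genes, of which 18 fell in wild type and 5 in knockout (background 13.3% and 5.72%). A higher interaction was called for 16 and a lower one for none (background 6.28% and 20.3%), with a median of 0.58. Hibadh, of valine breakdown, ran from 114 to 140 FPKM in WT-Gly and from 161 to 192 FPKM in KO-Gly (0.66 ± 0.09). Gstz1, of tyrosine breakdown downstream of Hpd, ran from 94.4 to 121 and from 142 to 186 FPKM (0.80 ± 0.12), and Aldh6a1, of valine and thymine breakdown, from 84.9 to 140 and from 185 to 255 FPKM (0.91 ± 0.15). No Gly group of these 3 overlapped that of the other genotype. For fatty acid oxidation, against the same shares, 19 of 21 fell in wild type and 14 in knockout, 11 had a higher interaction and none a lower one, and the median was 0.45. Cpt2, the inner membrane carnitine transferase, fell in both genotypes, with responses of -1.52 and -0.65 (interaction 0.86 ± 0.12), and so did Hadh, a dehydrogenase of the cycle, with -0.97 and -0.40 (0.57 ± 0.09). Acox2, a peroxisomal oxidase, had a response of -0.99 in wild type and 0.23 in knockout, the latter not passing the test (1.22 ± 0.17).

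A further list was drawn up around glyoxylate and oxalate. It also held genes of other pathways, such as Gcdh, so its counts do not describe the handling of glyoxylate alone. Of 8 tested, 5 fell in wild type (background 13.3%), the median response was -0.79 in wild type and -0.12 in knockout, and the interaction was higher in 5 and lower in 1 (background 6.28% and 20.3%), with a median of 0.71 (0.28 with saline knockout library 4 alone). Agxt2, a mitochondrial aminotransferase that uses glyoxylate, had 29.1 to 41.4 FPKM in WT-Ctrl, 16.6 to 22.7 FPKM in WT-Gly, 25.8 to 46.1 FPKM in KO-Ctrl and 24.01 to 37.0 FPKM in KO-Gly (0.93 ± 0.18). Aldh4a1, of proline and hydroxyproline breakdown, had 0.93 ± 0.19 and Gcdh, of lysine breakdown, 0.80 ± 0.12. The gene with a lower interaction was Ldhb, a lactate dehydrogenase subunit named after its value was seen (-0.55). The liver-type aminotransferase Agxt and the oxidase Hao1 were below the expression minimum.

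Proximal tubule transporters met the saline rule in 14 of 31 cases, while 17 lay outside it. Of the 14, 10 fell in wild type and 1 in knockout (background 13.3% and 5.72%), and 8 had a higher interaction, none a lower one (background 6.28% and 20.3%), with a median of 0.52. Slc34a1, the main phosphate cotransporter, had 1072 to 1572 FPKM in WT-Ctrl, 472 to 728 FPKM in WT-Gly, 896 to 1604 FPKM in KO-Ctrl and 807 to 1346 FPKM in KO-Gly (1.08 ± 0.21; limma, adjusted p = 0.000623). The amino acid carriers Slc6a20b (0.64 ± 0.13) and Slc3a1 (0.52 ± 0.15) had smaller interactions. Nuclear genes of mitochondrial respiration had interactions close to 0, with a median of 0.04. Of 26 tested, 14 fell in wild type and 9 in knockout (background 13.3% and 5.72%). A higher interaction was called for 2, among them Idh2 (0.45 ± 0.14), and a lower one for none. The count of 2 is a share near the background of 6.28%. Uqcrc2, of complex III, had 0.21 ± 0.08 (limma, adjusted p = 0.0518; 0.0402 without WT-Ctrl library 3, 0.0146 without WT-Gly library 1 and 0.0408 without WT-Gly library 6). After median-ratio scaling that list had 7 higher interactions and a median of 0.20.

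With saline knockout library 4 as the only KO-Ctrl library, 3 genes of the NF-kB list (Ccl12, Csf1 and Cxcl2) and no gene of the other lists had a called interaction. The median interaction of each list with at least 4 tested genes kept its sign except for mitochondrial respiration (-0.03), among medians of -0.84 for the cell cycle, -0.73 for the cytoskeleton, -0.45 for tubule injury, 0.48 for amino acid breakdown, 0.57 for fatty acid oxidation and 0.40 for proximal tubule transport. Under median-ratio scaling and quantile normalization the median of each such list kept its sign.

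**Figure D4:**
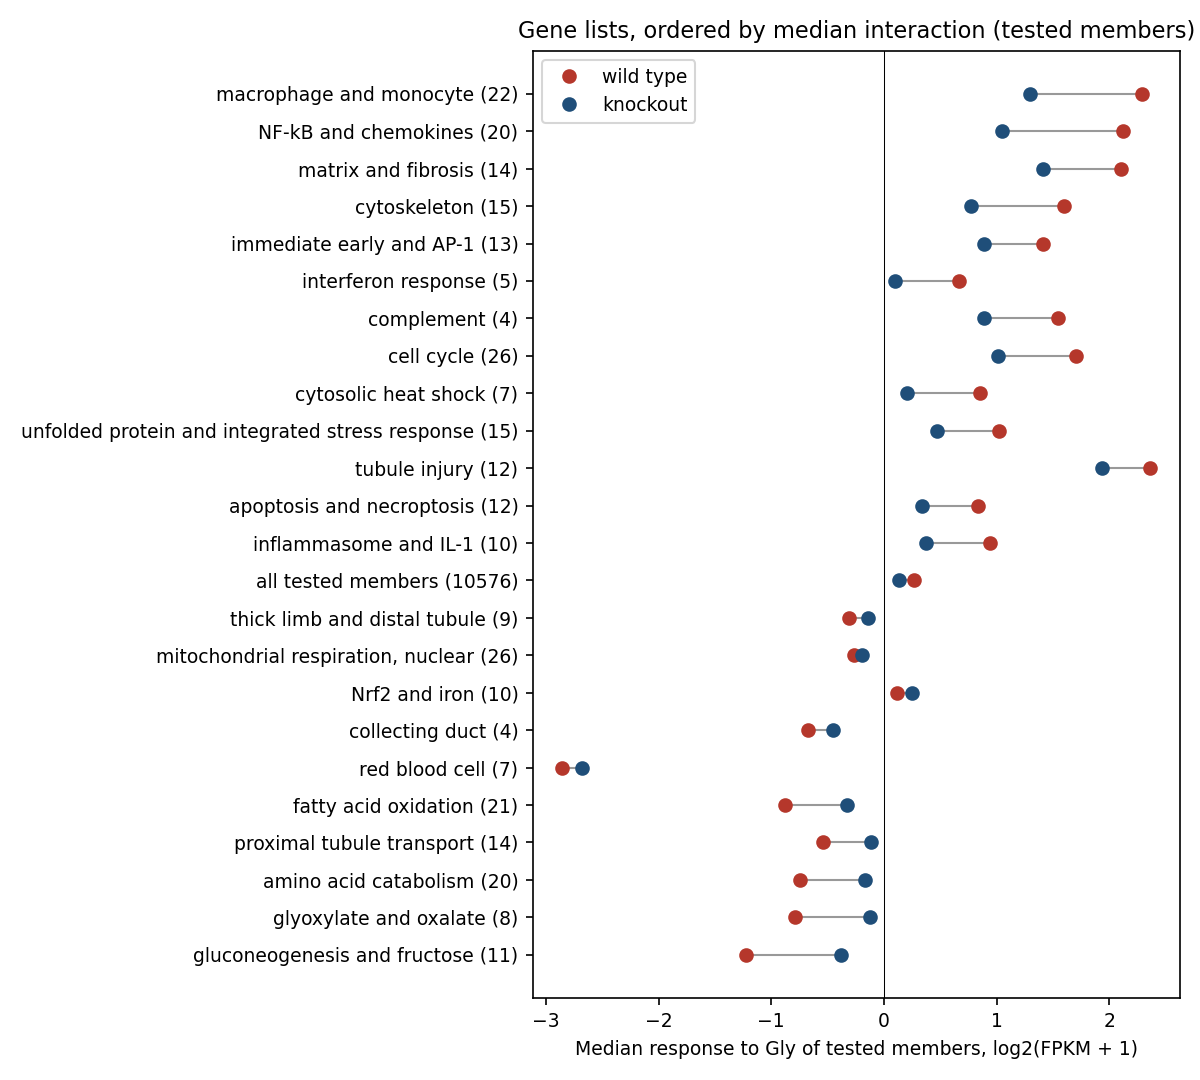
Median response to Gly on log2(FPKM + 1) in wild type (red) and knockout (blue) of each gene list with at least 4 tested genes (their number in brackets), ordered by median interaction, with all 10576 tested genes as a reference row. Injury, immune, stress and growth lists have the red point to the right of the blue, metabolic lists have it to the left, and for red blood cell and respiration genes the points nearly coincide.

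Among the remaining lists, red blood cell genes fell under Gly in both genotypes, 7 of 7 in wild type and 6 of 7 in knockout (background 13.3% and 5.72%), with median responses of -2.85 and -2.68 and interactions from 0.10 to 0.34 (limma, adjusted p from 0.531 to 0.916). Alas2, of heme synthesis, had 0.34 ± 0.60. For thick limb and distal tubule genes 1 of 9 had a lower interaction and none a higher one (Cldn16, named after its value was seen, -0.47; background 20.3%). The median of that list was 0.03, and 0.33 with saline knockout library 4 alone. The 4 collecting duct genes had interactions from -0.13 to 0.36, none of them called. Among 10 tested Nrf2 and iron genes, 3 had a higher interaction (Slc11a2, 0.54, Gsr, 0.42, and Nqo1, 0.60) and 1 a lower one (G6pdx, -0.35), with these 4 also named after their values were seen (background 6.28% and 20.3%). After median-ratio scaling and after quantile normalization 3 were higher and none lower. No podocyte gene, no gene of either sex-biased kidney list and no Y-linked gene on the lists met the saline rule, and 14 of 16 endothelial markers lay outside it. T and NK cell, adrenal and skeletal muscle markers that met the rule were all below the expression minimum.

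At the edge of the saline rule, the called genes nearest inside the threshold of 0.3 were Bod1 and C1s1, both with a saline difference of 0.30 after rounding, and the nearest outside were Pmpcb (-0.30) and Mitd1 (0.30). Their interactions were -0.59, -0.68, 0.46 and -0.77, which are descriptions of called genes. Their genotype differences among the Gly libraries were nearer 0, at -0.29, -0.38, 0.16 and -0.46 in the same order. The remaining 15128 features that met the rule were below the expression minimum and were not tested. Of the tested genes, 7 reached 1 FPKM in WT-Gly alone, among them the cell cycle genes Cenph and Chek1 and the dendritic cell factor Batf3. All 7 had a lower interaction, as passing through that group alone would give, and without them 2330 of 10569 were called.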

How the data were processed

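RNA was extracted with Trizol from frozen kidneys and sequenced from TruSeq libraries made with total RNA, per the labels' protocols. The authors deposited 1 table of FPKM values with a column per library. Bowtie 0.12.2 and the builds mm8 and mm9 are named in the submitters' processing notes, with no role stated. Neither the program that computed FPKM nor its annotation or handling of strand is given in the sources used here, so genes that overlap or have an antisense partner are uncertain. The sequencing depth is unknown, since FPKM keeps no counts, and intervals that would need it were not computed. FPKM sums of 439749 to 539018 per library are not a depth.

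From these values log2(FPKM + 1) was computed and fitted with limma 3.58.1 (intensity trend) in R 4.3.3, with a mean per group over all 24 libraries. The tested features reached 1 FPKM in 6 or more libraries, and p-values are two-sided with Benjamini-Hochberg adjustment over all 13020 of them. Calls have an adjusted p under 0.05. The difference between genotypes under Gly was fitted on the 12 Gly libraries alone. Fold changes on this scale understate those of low genes. Counts of genes include 485 models added by the authors. Symbols are those of the table, and 12331 of 12334 tested Ensembl IDs were found in a name table. Promoters came from RefSeq's GRCm38.p6 and were matched by symbol. The fit was tested on simulated data.

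The genes kept, the 36 gene lists and the alternatives were chosen with earlier results of these data known. Named genes were the 12 most negative and 12 most positive called interactions of genes with a symbol and at least 5 FPKM in the highest group, up to 3 genes of smallest p per list described, 2 on each side of the saline threshold, Nlrp3 and Ddx3y. The alternatives were other pseudocounts (0.1 and 0.5), filters, scalings, saline thresholds (0.15 and 0.5), weights, a replicate block, and leaving out libraries. Some genes are not reported here.

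No 2 libraries held identical values, and their log2 values correlated at 0.866 to 0.993 across features.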

Additional observations from a re-analysis of the deposited data

Results flagged for a closer look

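The interaction differed from 0 by its own test in 71 of the named genes kept by the saline rule. Those genes were named for a called interaction or a small p, so the count follows from that choice. Of all tested features, 26.6% had a called interaction. At the negative end the interactions were -2.35 (Ccl2), -2.16 (Csf1), -2.11 (Havcr1), -1.90 (Defb36), -1.83 (Ubd), -1.76 (Cyr61), -1.74 (Gpc3), -1.69 (Aoc1), -1.67 (Cxcl1), -1.65 (Lgals1), -1.61 (Atf3) and -1.60 (H2-Ab1). At the positive end they were 2.62 (Hpd), 1.93 (G6pc), 1.77 (Dnase1), 1.62 (Cyp4a10), 1.57 (Car14), 1.38 (Vnn1), 1.37 (Mogat2), 1.33 (Dhtkd1), 1.29 (Cyp4a31), 1.28 (Gpam) and 1.25 (Pcx).

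Genes named from the lists had interactions of -1.25 (Sox9), -1.49 (Timp1), -1.45 (Cxcl2), -1.55 (Ccl12), -0.96 (Gsdmd), -0.71 (Pycard), -1.56 (C1qc), -1.59 (Aif1), -1.49 (C1qb), -0.69 (C5ar1), -0.61 (C3ar1), -0.68 (C1s1), -1.37 (Psmb8) and -0.75 (Igtp) among injury and immune genes. For matrix, stress, cell cycle and cytoskeleton genes they were -1.07 (Tagln), -0.82 (Col18a1), -1.21 (Maff), -1.17 (Klf6), -0.87 (Atf4), -0.83 (Trib3), -1.05 (Sdf2l1), -1.04 (Dnajb1), -0.60 (Bag3), -1.36 (Hspa1a), -0.70 (Pcna), -0.96 (Mcm3), -0.95 (Mcm5), -0.79 (Tpm3), -0.98 (Tubb5), -0.89 (Tuba1b), -0.84 (Tnfrsf10b), -0.92 (Bbc3) and -0.62 (Tnfrsf1a). Transport and metabolic genes had 1.08 (Slc34a1), 0.64 (Slc6a20b), 0.52 (Slc3a1), 0.86 (Cpt2), 1.22 (Acox2), 0.57 (Hadh), 1.07 (Sord), 0.80 (Gcdh), 0.93 (Agxt2), 0.93 (Aldh4a1), 0.66 (Hibadh), 0.80 (Gstz1), 0.91 (Aldh6a1) and 0.45 (Idh2), and Bod1, at the edge of the saline rule, had -0.59.

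A single library stood far from the other 5 of its group in 8 of 96 groups of values examined, where chance gives about 1 in 20. In WT-Gly library 1, Defb36 was at 15.7 FPKM, Ubd at 27.3 FPKM and Lgals1 at 306 FPKM, each the highest of its group, and this library also had the highest ribosomal share. In WT-Gly library 5, G6pc was lowest at 16.4 FPKM. In saline, Ccl2 was at 0.790 FPKM in KO-Ctrl library 2, and in WT-Ctrl library 3 Havcr1 was at 1.55 FPKM and Defb36 at 0.391 FPKM. Defb36 was also highest in KO-Gly library 1, at 1.76 FPKM.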

How the results depend on the processing

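The count of called interactions, 2337, stayed within 1.5 times under both pseudocounts, both filters, median-ratio scaling, quantile normalization, robust moderation, a saline threshold of 0.5 and each left-out library (1926 to 3013). It went to 1372 at a saline threshold of 0.15, which keeps fewer genes, to 7 without the 5 KO-Ctrl libraries that lack Ddx3y (1089 at an unadjusted p under 0.05), to 5151 with array weights and to 4281 without WT-Gly libraries 1 and 5. The difference between genotypes under Gly, 1675 genes, went to 4203 with array weights, 3730 without WT-Gly libraries 1 and 5 and 3167 with all 24 libraries in the fit, and ranged from 957 to 2119 with 1 library left out. Knockout response calls, 3011, went to 442 without the 5. A count of similar size does not mean the same genes. Of the 2337, 1296 were also called after median-ratio scaling and 1424 after quantile normalization. Where the alternative does not itself change the number of genes or samples, the cause was not tested. No interaction of the 80 named genes changed sign in an alternative. Without the 5, which leaves 1 KO-Ctrl library, nearly all named genes with a call lost it. The interactions of the 23 leading genes were then 0.624 to 1.24 times their size. Elsewhere calls were lost by Pycard (adjusted p = 0.0685), C1s1 (0.0608) and Igtp (0.0507) under quantile normalization, C3ar1 (0.0575) at a pseudocount of 0.1, Bod1 (0.065) under median-ratio scaling and C1s1 (0.066) with no filter, all by limma.

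The replicate numbers did not pair the samples: 7 of 36 same-numbered pairs across groups had a correlation of deviations over 0.1, with a median of -0.0229. A fit with the replicate block gave 2186 called interactions, 1362 differences under Gly, 6625 wild-type and 2889 knockout response calls, and changed no call of a named gene. Unknown depth limits what can be said of genes near 0 FPKM, Nlrp3 among them.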
